A study of Bos taurus with 6 samples.

Results

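The antigen presentation machinery was followed here as 10 genes picked by gene name: B2M, TAP1, TAP2, TAPBP, PSMB8, PSMB9, PSMB10, NLRC5, CIITA and CD74. They were picked with earlier results of these data known. Each name matched a single entry, so the members were 10 of 32183 genes listed for every culture. All 10 passed the filter on low values. The cells were rumen epithelial primary cells (REPC), isolated from the rumen of a Holstein bull calf that was 2 weeks old and had been fed milk replacer only. The butyrate group was 3 cultures sampled 24 h after the start of treatment with 5 mM butyrate, a short-chain fatty acid made by rumen microbes. The control group was 3 cultures labelled as controls, with no time given in the labels and no butyrate. Gene expression was measured by RNA sequencing (RNA-seq) of total RNA from each culture. All cultures came from the cells of a single calf, so the p-values measure the spread between cultures and not between animals.

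Nucleated cells show fragments of their own proteins on the surface in MHC class I molecules. The proteasome cuts the proteins, the TAP transporter moves the fragments into the endoplasmic reticulum, and tapasin helps load them onto a heavy chain paired with beta-2-microglobulin. MHC class II molecules show fragments of proteins taken up from outside and are made mainly by professional antigen-presenting cells, although epithelial cells can be brought to make them by interferon gamma. The invariant chain CD74 guides class II molecules to the endosome, and the transactivators NLRC5 and CIITA act mainly on the class I and class II genes, respectively.

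Expression was given as FPKM, mapped fragments scaled by transcript length and by library size, a unit that corrects for gene length and so allows levels to be set side by side between genes. The deposited FPKM summed to 678035 to 681912 in the control cultures and 619401 to 629037 in the butyrate cultures. The number of genes with any FPKM was 16051 to 16193 per control culture, against 17306 to 17510 per butyrate culture. Fold changes are on the log2(FPKM + 0.1) scale, as butyrate minus control, a scale on which changes of weakly expressed genes look smaller than they are. A gene is said to have risen or fallen only where limma gave a Benjamini-Hochberg (BH) adjusted p under 0.05 over the 15813 genes tested. A differentially expressed gene (DEG) had a Bonferroni-corrected limma p under 0.05 and an absolute log2 fold change above 2. Summed epithelial markers stood at 6189 to 6467 FPKM in control and 8856 to 9183 FPKM in butyrate cultures, with KRT17 the highest. Keratin genes carried this level, whereas EPCAM, TP63 and DSP had control means of 0.540, 8.06 and 7.96 FPKM. The fibroblast markers together were at 1924 to 1982 FPKM against 2789 to 3037 FPKM in sum. The sum was carried by collagen genes, of which COL1A1 was the highest, whereas PDGFRB and FAP were near 0 and not tested. Of 8 fibroblast markers listed, 6 were tested and 6 rose. Of the 10 epithelial markers tested, 6 rose, KRT5 fell (log2 fold change -0.17) and KRT17, CDH1 and DSP were not called. The share over all tested genes was 32.5% that rose and 25.9% that fell. The part of either cell type in the results on the members was not tested. A change in RNA per cell and a change in the share of a cell type cannot be told apart in bulk RNA.

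Of the 10 members, 5 rose after butyrate (B2M, PSMB9, PSMB10, CIITA and CD74), 2 fell (TAP2 and PSMB8) and 3 were not called (TAP1, TAPBP and NLRC5). Over all tested genes, 32.5% rose and 25.9% fell, so 58.4% were called in either direction. The split between directions turned with quantile normalization, where 4284 genes rose and 4679 fell, in place of 5144 and 4091. The 7 of 10 members called stood near that background, and the count by itself is not particular to these genes. None of the 10 members was a DEG, compared with 3.97% of all genes tested (2.46% higher and 1.51% lower after butyrate). By limma, the same 7 members had an unadjusted p under 0.05, as did at least the 58.4% of all tested genes called by BH. PSMB9 alone passed the Bonferroni correction, at a log2 fold change below the DEG threshold. Every DEG passes this correction, so at least 3.97% of all tested genes did. The values of the 3 control cultures and the 3 butyrate cultures did not overlap for 7 of the 10 members, 5 higher and 2 lower after butyrate, compared with 65.0% of all genes tested (36.1% higher and 28.9% lower). The median log2 fold change of the members was 0.22, beside 0.10 over all tested genes.

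**Figure D1:**
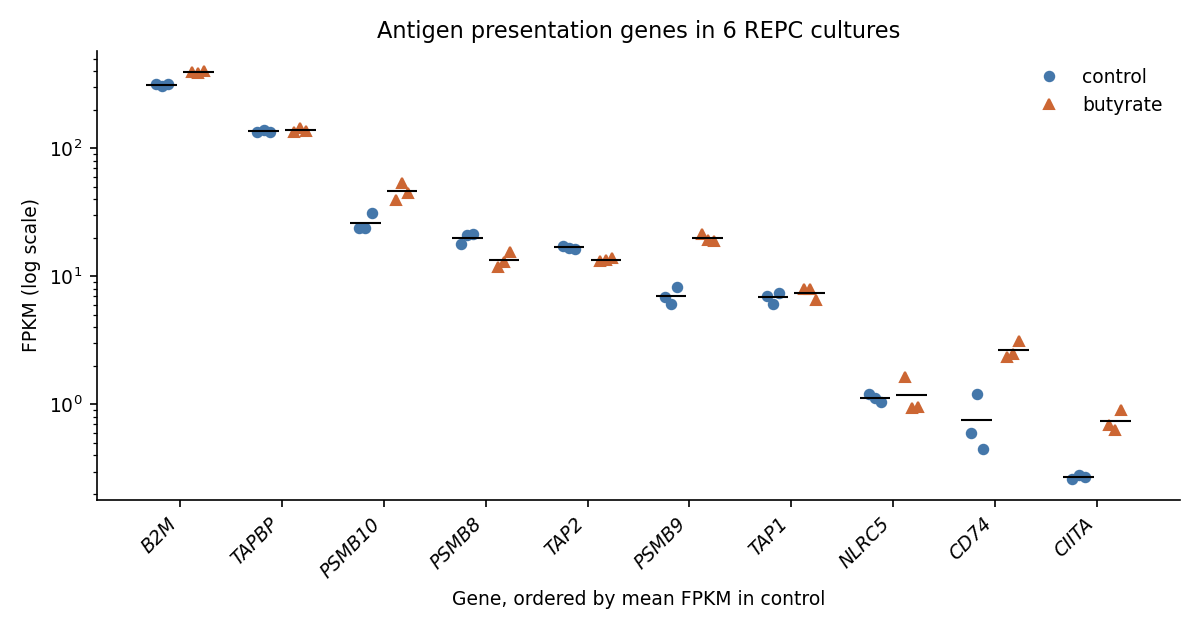
FPKM of the 10 members in each culture, on a log axis; each point is a culture and each line a group mean of 3 cultures. The groups separate for B2M, TAP2, PSMB8, PSMB9, PSMB10, CIITA and CD74 and overlap for TAP1, TAPBP and NLRC5.

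The members spanned a wide range of levels per length. In the control cultures, B2M was the highest at 312 ± 5.92 FPKM (SD, n = 3) and CIITA the lowest at 0.272 ± 0.0104 FPKM. Between them stood, in falling order, TAPBP, PSMB10, PSMB8, TAP2, PSMB9, TAP1, NLRC5 and CD74. PSMB9 and TAP1 overlapped in their culture ranges, as did NLRC5 and CD74, so neither pair could be ordered. After butyrate the order ran B2M, TAPBP, PSMB10, PSMB9, PSMB8, TAP2, TAP1, CD74, NLRC5 and CIITA, and the only neighbours that overlapped were PSMB8 and TAP2. PSMB9 thus stood beside TAP1 in control cultures and above PSMB8 and TAP2 in butyrate cultures. CD74 stood above NLRC5 in every butyrate culture.

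Among the genes that give the class I molecule its light chain and its peptides, B2M rose, TAP2 fell, and TAP1 and TAPBP were not called. B2M (chr10:104124760-104126406 on the UMD3.1 build), which encodes the light chain shared by class I molecules, was at 314, 306 and 317 FPKM in control cultures 1, 2 and 3 and at 394, 384 and 398 FPKM in butyrate cultures 1, 2 and 3. Every butyrate culture was above every control culture, and the replicates within a group lay close together. B2M rose 1.26-fold, from 312 ± 5.92 to 392 ± 7.51 FPKM (SD, n = 3), a log2 fold change of 0.33 (SE 0.036) with a limma BH adjusted p of 7.68e-05. TAPBP (chr23:7415847-7425523), the tapasin gene, was at 133, 138 and 133 FPKM in control cultures 1, 2 and 3 and at 134, 145 and 135 FPKM in butyrate cultures 1, 2 and 3. Its groups overlapped, and the log2 fold change of 0.032 (SE 0.047), with a 95% confidence interval of -0.075 to 0.14, was not called (limma BH adjusted p = 0.586). TAPBP was called higher after rescaling to TPM (log2 fold change 0.15, limma BH adjusted p = 0.0185) and after quantile normalization (0.16, limma BH adjusted p = 0.0119), within a range of 0.0119 to 0.951 over 15 alternatives.

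TAP1 and TAP2 encode the 2 chains of the peptide transporter and lie near each other on chromosome 23. TAP1 (chr23:7117862-7126817) was at 7.07, 6.07 and 7.44 FPKM in control cultures 1, 2 and 3 and at 7.94, 7.95 and 6.52 FPKM in butyrate cultures 1, 2 and 3. Butyrate culture 3 lay within the control range, and TAP1 was not called, with a log2 fold change of 0.12 (SE 0.13), a 95% confidence interval of -0.17 to 0.41 and a limma BH adjusted p of 0.452. TAP2 (chr23:7079668-7086845) was at 17.1, 16.8 and 16.4 FPKM in control cultures 1, 2 and 3 and at 13.1, 13.4 and 13.8 FPKM in butyrate cultures 1, 2 and 3. All 3 butyrate cultures were below all 3 control cultures, and TAP2 fell by a factor of 1.25 (log2 fold change -0.32 (SE 0.072), limma BH adjusted p = 0.00474). The ratio of TAP1 to TAP2 FPKM was 0.413, 0.362 and 0.453 in control cultures and 0.606, 0.594 and 0.473 in butyrate cultures. The ratio was higher in each butyrate culture than in any control culture, by 0.44 on the log2 scale.

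The immunoproteasome subunits changed in opposite directions. These 3 subunits take the place of the constitutive catalytic subunits, PSMB8 that of PSMB5, PSMB9 that of PSMB6 and PSMB10 that of PSMB7, and favour cuts that leave peptides fit for class I molecules. PSMB9 (chr23:7126695-7133612) was at 6.93, 6.10 and 8.19 FPKM in control cultures 1, 2 and 3 and at 21.5, 19.2 and 18.8 FPKM in butyrate cultures 1, 2 and 3. The lowest butyrate culture was above 8.19 FPKM, the highest control value, and PSMB9 rose 2.80-fold, from 7.07 ± 1.05 to 19.8 ± 1.50 FPKM (SD, n = 3). Its log2 fold change was 1.48 (SE 0.12), with a limma BH adjusted p of 1.23e-05 and a Bonferroni-corrected p of 0.0198. PSMB10 (chr18:35540346-35544013) was at 24.0, 23.8 and 31.1 FPKM in control cultures 1, 2 and 3 and at 39.3, 53.9 and 44.6 FPKM in butyrate cultures 1, 2 and 3. It rose 1.75-fold, with more spread between cultures in both groups (log2 fold change 0.80 (SE 0.14), limma BH adjusted p = 0.00105). PSMB8 (chr23:7113298-7117316) was at 17.7, 21.1 and 21.2 FPKM in control cultures 1, 2 and 3 and at 11.8, 13.0 and 15.5 FPKM in butyrate cultures 1, 2 and 3. The groups did not overlap, and PSMB8 fell by a factor of 1.49 (log2 fold change -0.58 (SE 0.12), limma BH adjusted p = 0.0031).

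The constitutive subunits that these replace were far more abundant. PSMB5 was at 405, 408 and 416 FPKM in control cultures 1, 2 and 3 and at 163, 161 and 183 FPKM in butyrate cultures 1, 2 and 3. PSMB6 was at 406, 418 and 432 FPKM in control cultures 1, 2 and 3 and at 215, 223 and 231 FPKM in butyrate cultures 1, 2 and 3. PSMB7 was at 253, 233 and 247 FPKM in control cultures 1, 2 and 3 and at 141, 149 and 142 FPKM in butyrate cultures 1, 2 and 3. Each fell in every butyrate culture below the control range, with log2 fold changes of -1.28, -0.91 and -0.76 and limma BH adjusted p-values of 3.33e-07, 6.06e-07 and 2.34e-06 for PSMB5, PSMB6 and PSMB7. Across the constitutive catalytic subunits, the proteasome activators and the assembly factor POMP, 0 of the 8 genes tested rose, 5 fell and 3 were not called, with a median log2 fold change of -0.54. The largest falls were those of PSMB5, PSMB6 and PSME3, the nuclear activator subunit (-0.83). PSME1 and PSME2, the interferon-responsive activator subunits, had log2 fold changes of -0.04 and -0.0048 and limma BH adjusted p-values of 0.524 and 0.963. PSMB11, the thymus form of the subunit, was listed at 0 in all 6 cultures.

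**Figure D2:**
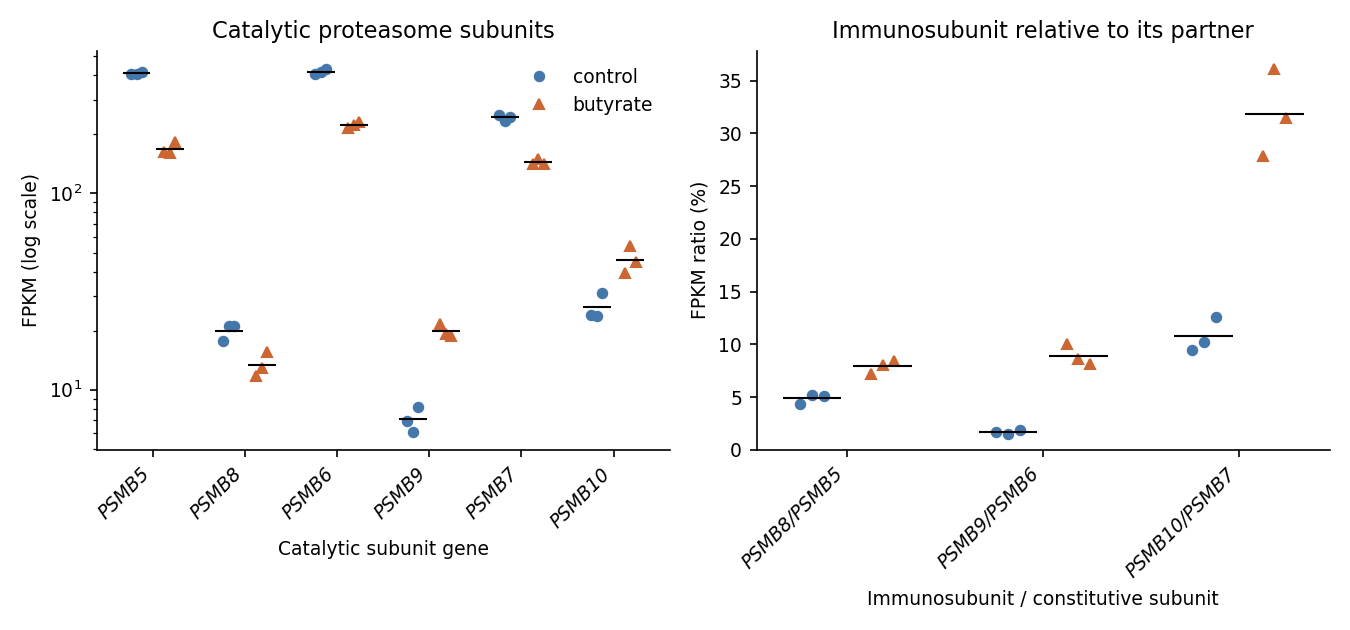
Immunoproteasome subunits and the constitutive subunits they replace: FPKM by culture, and the FPKM of PSMB8, PSMB9 and PSMB10 as a percentage of PSMB5, PSMB6 and PSMB7. Every percentage was higher in the 3 butyrate cultures than in the 3 control cultures, including that of PSMB8, whose own FPKM was lower.

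Set against its constitutive partner, each immunosubunit was higher after butyrate. PSMB8 FPKM amounted to 4.38, 5.16 and 5.10% of PSMB5 in the control cultures and 7.23, 8.06 and 8.45% in the butyrate cultures. PSMB9 amounted to 1.71, 1.46 and 1.90% of PSMB6 in control and 10.02, 8.61 and 8.10% in butyrate cultures. PSMB10 amounted to 9.50, 10.2 and 12.6% of PSMB7 in control and 27.9, 36.1 and 31.4% in butyrate cultures. The geometric mean ratio after butyrate was 1.62, 5.29 and 2.96 times that in control, a difference of 0.70, 2.40 and 1.57 on the log2 scale. For PSMB8 the higher ratio came with a lower numerator and a denominator that was lower still, whereas for PSMB9 and PSMB10 the numerator rose and the denominator fell. Even so, the constitutive subunit remained the more abundant of each pair in every culture.

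TAP1 and PSMB9 are read in opposite directions from a promoter that they share in mammals, yet only PSMB9 was called. The ratio of TAP1 to PSMB9 FPKM was 1.02, 0.996 and 0.908 in control cultures and 0.368, 0.414 and 0.347 in butyrate cultures, a difference of -1.37 on the log2 scale. The 2 gene models overlap by 123 bp in the annotation, and reads in that stretch cannot be assigned to either gene, since no source used here states that counting used strand. In all, 7 ratios between partners were compared by an exact two-sided permutation test. With 3 cultures against 3, the smallest p that this test can give is 0.1, and 6 of the 7 ratios reached it (BH adjusted p = 0.117), so none could pass the threshold. For PSME1/PSME2 the ratios were 1.67, 1.80 and 1.67 in control cultures and 1.79, 1.63 and 1.60 in butyrate cultures, and these overlapped (exact permutation p = 0.5, BH adjusted p = 0.5).

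Of the transactivators, CIITA rose and NLRC5 was not called. NLRC5 (chr18:25091696-25185333), the activator of class I genes, was at 1.22, 1.13 and 1.04 FPKM in control cultures 1, 2 and 3 and at 1.63, 0.941 and 0.961 FPKM in butyrate cultures 1, 2 and 3. Butyrate culture 1 was the highest of the 6 and butyrate culture 2 the lowest. NLRC5 was not called, with a log2 fold change of 0.016 (SE 0.26), a 95% confidence interval of -0.58 to 0.62 and a limma BH adjusted p of 0.964. Without butyrate culture 1, its log2 fold change was -0.22. The interval covers both a rise and a fall, so these cultures do not show that NLRC5 stayed at its level.

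CIITA (chr25:9604069-9663427), the activator of class II genes, was the lowest of the members in both groups, at 0.261, 0.282 and 0.273 FPKM in control cultures 1, 2 and 3 and at 0.692, 0.632 and 0.906 FPKM in butyrate cultures 1, 2 and 3. All butyrate cultures were above all control cultures, and CIITA rose 2.74-fold (log2 fold change 1.17 (SE 0.29), limma BH adjusted p = 0.00782). The authors' confidence bounds on a single culture were wide at this level. The highest upper bound in a control culture was 0.581 FPKM and the lowest lower bound in a butyrate culture 0.297 FPKM, so bounds of single cultures overlapped between the groups. The call was lost with quantile normalization (log2 fold change 0.44, limma BH adjusted p = 0.227), within a range of 0.00121 to 0.227 over 14 alternatives. The ratio of NLRC5 to CIITA FPKM was 4.67, 4.01 and 3.83 in control cultures and 2.36, 1.49 and 1.06 in butyrate cultures, lower in every butyrate culture than in any control culture, with a difference of -1.42 on the log2 scale.

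CD74 (chr7:63748881-63756712), the invariant chain of class II molecules, had the largest log2 fold change of the 10 members on this scale, although that of PSMB9 was larger with a pseudocount of 1, with quantile normalization and without control culture 3. It was at 0.604, 1.20 and 0.453 FPKM in control cultures 1, 2 and 3 and at 2.34, 2.47 and 3.11 FPKM in butyrate cultures 1, 2 and 3. The groups did not overlap, although control culture 2 stood above the other control cultures. CD74 rose 3.50-fold, from 0.754 ± 0.398 to 2.64 ± 0.410 FPKM (SD, n = 3), a log2 fold change of 1.77 (SE 0.33) with a 95% confidence interval of 1.02 to 2.52 and a limma BH adjusted p of 0.00159. Its level stayed below that of TAP1 in every culture.

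The depth behind these values differed widely between members. From the deposited bounds, about 1857 to 2108 fragments per culture stood behind B2M and 2383 to 2848 behind TAPBP. About 155 to 191 stood behind TAP2, 106 to 171 behind PSMB8, 92 to 148 behind TAP1, 87 to 240 behind PSMB10 and 22 to 85 behind PSMB9. NLRC5 rested on about 43 to 75, CIITA on about 4 to 19 and CD74 on about 3 to 29 fragments per culture. The bounds cover error within a library and not the spread between cultures.

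**Figure D3:**
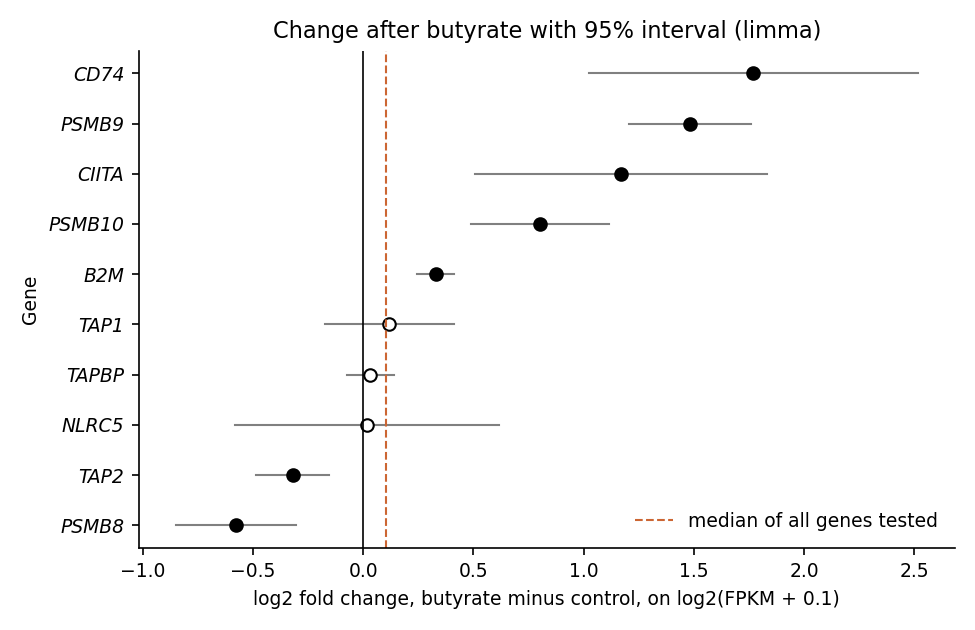
Log2 fold change (butyrate minus control, log2(FPKM + 0.1) scale) of the 10 members with 95% confidence intervals from limma over 3 cultures against 3, filled where the BH threshold was passed. CD74, PSMB9 and CIITA lie farthest above 0, PSMB8 and TAP2 lie below it, and the intervals of TAP1, TAPBP and NLRC5 cross it.

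The genes that encode partners of the members were taken as lists set by name, also with earlier results of these data known. Each list is read beside the 32.5% that rose, the 25.9% that fell and the median log2 fold change of 0.10 over all tested genes. Of the class I heavy chains and relatives, 23 names were sought, 8 were not found and 1 repeated another. The names not found included BOLA-A, BOLA-NC2, BOLA-NC3, BOLA-NC4, MICA and MICB, so the list does not cover all class I chains. Of the 14 listed, 4 were at 0 in all cultures and 10 were tested. Among these, 7 rose, 1 fell and 2 were not called, with a median log2 fold change of 0.99. The largest rises were those of MIC1, a class I relative (2.93 to 12.7 FPKM, log2 fold change 2.15), BOLA, a class I heavy chain, and BOLA-NC1, a non-classical heavy chain (1.42). BOLA was at 25.2, 23.8 and 25.7 FPKM in control cultures 1, 2 and 3 and at 69.9, 79.2 and 78.3 FPKM in butyrate cultures 1, 2 and 3 for the highest of its 3 entries (chr23:28502517-28506349), with a log2 fold change of 1.60 (SE 0.067) and a limma BH adjusted p of 3.19e-07. The other BOLA entries had log2 fold changes of 0.52 and 0.28, with limma BH adjusted p-values of 0.0168 and 0.0585. Class I genes are close copies of each other, and MIC1 shares bases with another BOLA entry in the annotation, so reads could be split between copies and the value of a single one is uncertain. HFE, a class I relative that takes part in iron uptake, fell (4.42 to 1.30 FPKM, log2 fold change -1.72). It shares 7113 bp with LOC617905 in the annotation, so reads there may not be assigned to a single gene. FCGRT, the heavy chain of the neonatal Fc receptor and the most abundant of the list, had a log2 fold change of 0.072 (limma BH adjusted p = 0.294). B2M pairs with the BOLA heavy chains, with HFE and with FCGRT.

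The factors that fold and load class I molecules, leaving aside the members, went the other way in number. Of the 13 tested, 1 rose, 6 fell and 6 were not called, with a median log2 fold change of -0.19. The gene that rose was GANAB, a glucosidase that trims glycans on new proteins (0.16), and the number that rose was 0 to 2 when single cultures were left out and 3 after rescaling to TPM. The largest falls were in HSPA5, an abundant chaperone of the endoplasmic reticulum (619.5 to 248 FPKM, log2 fold change -1.32), in calreticulin (CALR, 928 to 573 FPKM, -0.70) and in calnexin (CANX, -0.69). These chaperones fold many glycoproteins besides class I chains. TAPBP, at the same step, was not called.

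**Figure D4:**
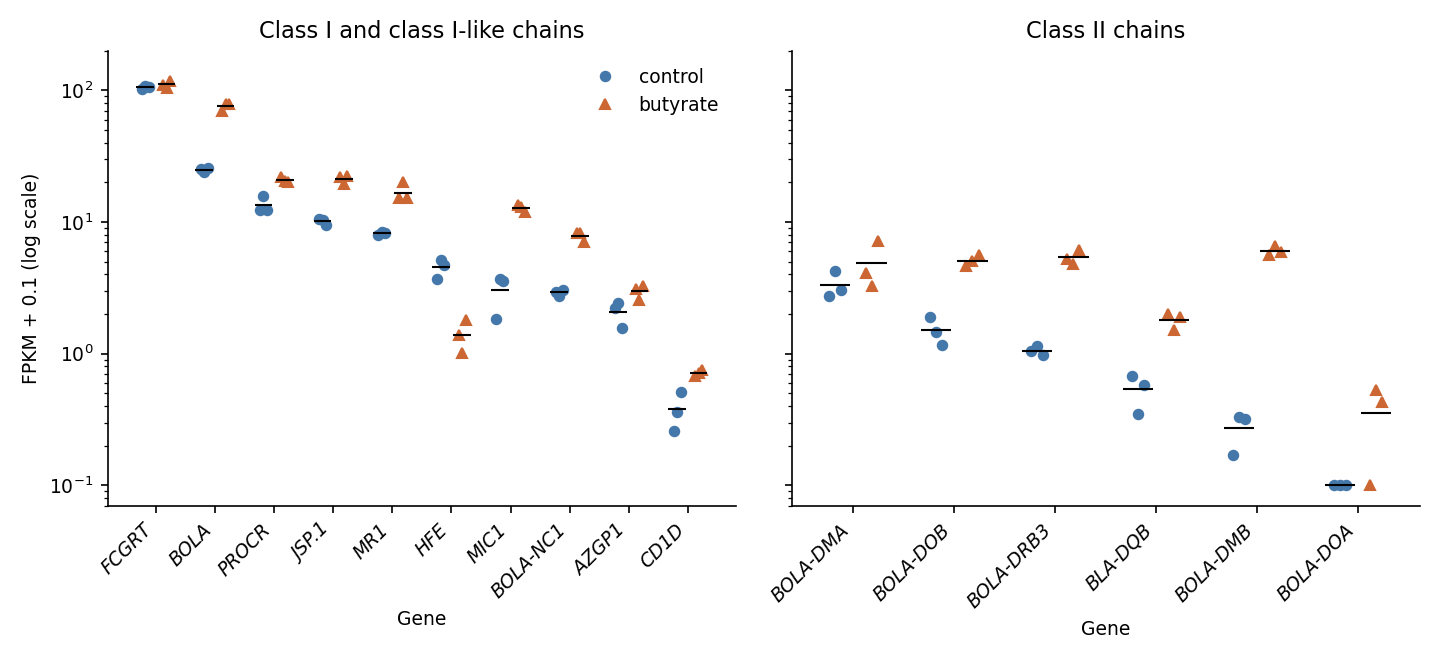
FPKM of the tested class I and class I-like chains and of the tested class II chains in each culture, plotted as FPKM + 0.1 on log axes; points are cultures and lines are group means of 3 cultures. The highest BOLA entry and BOLA-DMB separate fully between groups, with BOLA-DMB near the floor of the axis in the control cultures.

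The class II chains were low in both groups. Of 15 listed, 7 were at 0 in all cultures and 6 were tested. Among these, 4 rose, 0 fell and 2 were not called, with a median log2 fold change of 1.79. BOLA-DOA, tested but not called, was at 0 in the 3 control cultures and passed the filter only through the butyrate group. BOLA-DMB, a chain of the peptide exchanger DM, was at 0.0699, 0.227 and 0.218 FPKM in control cultures 1, 2 and 3 and at 5.49, 6.47 and 5.79 FPKM in butyrate cultures 1, 2 and 3. It was a DEG (log2 fold change 4.53 (SE 0.29), limma adjusted p by Bonferroni = 0.0032), whereas its partner BOLA-DMA, the most abundant of the list in control cultures but not after butyrate, was not called (limma BH adjusted p = 0.19). BOLA-DRB3, the main DR beta chain of cattle, was also a DEG (0.953 to 5.30 FPKM, log2 fold change 2.35, limma adjusted p by Bonferroni = 0.00845). BLA-DQB, a DQ beta chain, rose by 1.80 on the log2 scale. BOLA-DRA, the alpha chain that pairs with DR beta chains, was listed at 0 in the 3 control cultures and in butyrate culture 2 and was at 0.173 and 0.0867 FPKM in butyrate cultures 1 and 3; it was too low to be tested and was named after its values were seen. Like the class I chains, class II genes have close copies, and values of single genes are uncertain.

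Leukocyte markers were measured beside these class II genes. Of 19 listed, 8 were tested, 3 of which rose and 1 fell, and the summed level was 11.3 to 12.0 FPKM in control and 27.4 to 29.7 FPKM in butyrate cultures. CD3G, a chain of the T cell receptor complex and the highest of the list after butyrate, rose from 0.471 to 12.8 FPKM, while CD14 was the highest in control cultures. AIF1 (1.07 to 5.01 FPKM) and CD68 (0.595 to 1.21 FPKM) also rose, and LCP1 fell (3.15 to 1.73 FPKM). In the annotation AIF1 shares 2281 bp with NCR3, so reads there may not be assigned to a single gene. TYROBP and SPI1, with control means below the filter of 0.1 FPKM, were tested only through the butyrate group and were not called. PTPRC, carried by nearly all leukocytes, was listed at 0 in all 6 cultures, as were CD4, MS4A1 and CD79B. Of 6 endothelial markers listed, 3 were tested and 3 rose: ERG, PECAM1 (1.54 to 3.95 FPKM) and VWF (0.456 to 3.31 FPKM). The leukocyte and endothelial counts stand beside the 32.5% that rose and the 25.9% that fell over all tested genes. CDH5 was at 0 in all cultures. The summed level of the endothelial markers was 3.46 to 4.86 FPKM in control and 11.1 to 12.7 FPKM in butyrate cultures, with ERG the highest. The part of leukocytes and of endothelial cells in the rise of CIITA, CD74 and the class II chains was not tested.

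The proteases and ligases that work on class II molecules and on CD74 mostly rose. Of 10 tested, 8 rose, 1 fell and 1 was not called, with a median log2 fold change of 0.67. CTSH and CTSZ, lysosomal cathepsins, rose by 1.04 and 0.81 on the log2 scale, and MARCH8, a ligase that removes class II molecules from the surface, by 0.98. CTSD, the most abundant, was at 402 FPKM in control and 683 FPKM in butyrate cultures. The gene that fell was CTSS, which encodes cathepsin S, the protease known for trimming the CD74 chain (log2 fold change -1.24).

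Factors that work with CIITA and NLRC5 at MHC promoters, listed together with chromatin regulators such as EZH2, fell more often than they rose. Of 11 tested factors of the enhanceosome and its chromatin regulators, 1 rose, 5 fell and 5 were not called, with a median log2 fold change of -0.10. EP300 was sought for this list and not found by name. RFX5, which binds the X box of MHC promoters, was at 7.88, 7.80 and 6.96 FPKM in control cultures 1, 2 and 3 and at 3.40, 3.61 and 3.64 FPKM in butyrate cultures 1, 2 and 3. The groups did not overlap, and RFX5 fell (log2 fold change -1.07 (SE 0.12), limma BH adjusted p = 6.7e-05). NFYC, a subunit that binds the Y box, fell by 1.33 and EZH2, a histone methyltransferase that represses CIITA in some cells, by 1.26 on the log2 scale. NFYA was the gene that rose (0.31), and the number that rose was 0 with quantile normalization and 0 to 1 when single cultures were left out. RFXANK, the most abundant of the list, was not called (limma BH adjusted p = 0.646).

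Genes of interferon signalling, which drives the members in many cell types, rose in 12 of the 19 tested, with 0 that fell, 7 not called and a median log2 fold change of 0.53. IRF1, which binds class I promoters and a promoter of CIITA, had the largest rise (2.22 to 5.50 FPKM, log2 fold change 1.27 (SE 0.13), limma BH adjusted p = 5.6e-05). In the annotation IRF1 shares 5943 bp with LOC107132617, so reads there may not be assigned to a single gene. IFNAR2, a chain of the type I interferon receptor, and STAT3 rose by 0.84 and 0.83 on the log2 scale. IFNG, which encodes interferon gamma, was listed at 0 in all 6 cultures and was named after its values were seen. IFNGR2, a chain of its receptor and the most abundant of the list in control cultures but not after butyrate, was not called (limma BH adjusted p = 0.779).

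Costimulatory and inhibitory ligands, which T cells read beside the presented peptide, were split. Of 11 tested, 6 rose, 2 fell and 3 were not called, with a median log2 fold change of 0.46. LGALS9, which encodes galectin-9, rose by 2.22 on the log2 scale, from 0.0996 FPKM in control to 0.80 FPKM in butyrate cultures. Its control mean was below the filter of 0.1 FPKM, so it passed only through the butyrate group. Another LGALS9 entry was at 0 in all cultures. CD83, a surface protein of mature dendritic cells, rose by 2.04 on the log2 scale. CD80, a ligand of CD28, was listed at 0 in the 3 control cultures and at 0.0643, 0.235 and 0.878 FPKM in butyrate cultures 1, 2 and 3. CD80 also passed the filter only through the butyrate group. The calls of CD80 (limma BH adjusted p = 0.0339) and of LGALS9 are counted among the 6. CD40 and CD276 fell by 0.76 and 0.50 on the log2 scale. ICOSLG, the most abundant of the list after butyrate but below CD276 in control cultures, had a log2 fold change of 0.36.

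**Figure D5:**
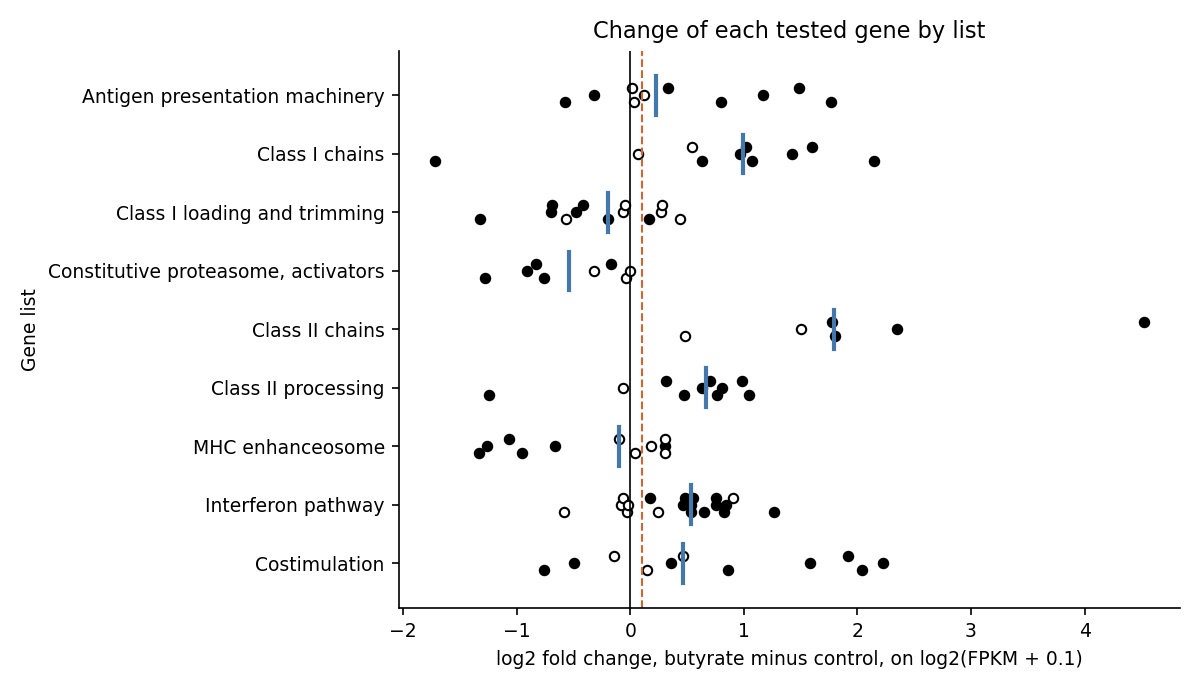
Log2 fold change (butyrate minus control, log2(FPKM + 0.1) scale) of every tested gene in the members and in each pathway list; each point is a gene, filled points passed the BH threshold, blue bars are list medians and the dashed line is the median of all tested genes, 0.10. Class II processing genes and interferon genes lie mostly above 0, constitutive proteasome and class I loading genes mostly below.

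The pattern of a member over the 6 cultures was set beside that of 13218 named genes, as a description in which the cultures are shared. NLRC5 was most like RUSC2, TOM1 and FAM180A, with Pearson r of 0.989, 0.950 and 0.946 on the log2(FPKM + 0.1) scale, and no gene reached 0.99. B2M was most like PSAT1, PRELP and SHROOM1, each with r of 0.999. As many as 223 genes lay above 0.99 with B2M. The difference between the groups was kept in r, so genes with tight, separated groups that moved the same way reach a high r. The genes named are the highest of 13218 over 6 cultures, and no link between them and the members was tested.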

How the data were processed

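The labels give 6 RNA-seq libraries of REPC, 3 per group, prepared with a TruSeq kit and sequenced as pairs. The authors deposited FPKM per gene for each culture with confidence bounds. Per the labels' processing notes, the tools were Trim Galore 0.4.1, STAR and Cufflinks on the UMD3.1 build; other versions were not given in the sources used here. FPKM carry no counts, so fragments per culture were approximated from the bounds, and effective depth came to between 5751780 and 6182000 fragments. A gene's FPKM depends on the share taken by all other genes.

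The tables were joined by identifier, position and name. The test took genes whose mean FPKM reached 0.1 and whose estimate succeeded in every culture, which left out 2 entries with a failed estimate. limma 3.58.1 (R 4.3.3) was fitted to log2(FPKM + 0.1) over all 15813 genes with a mean-variance trend and no covariates. Ratios were tested with scipy 1.17.1 (Python 3.11.15) by exact two-sided permutation. The fit was tested on simulated data.

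The members and lists were chosen with earlier results of these data known. Named genes were the members, PSMB5, PSMB6, PSMB7, PSME1, PSME2, RFX5 and IRF1, up to 3 largest rises and up to 3 largest falls among called genes of each list with its most abundant gene, markers at 0 in all cultures or highest, and the 3 genes most like NLRC5 and B2M. Alternatives changed the pseudocount (0.01 and 1), the filter (none, and a mean FPKM of at least 1), the scaling (quantile, TPM, median), the trend, the DEG fold threshold, the replicate block and the cultures used. A further gene of the naming rule is not reported here. Promoter motifs and protein sequences were planned and not analysed here. RefSeq names linked CD1B3 to CD1B and BOLA-DQB1 to BLA-DQB.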

Additional observations from a re-analysis of the deposited data

How the results depend on the processing

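The counts of 5 members that rose and 2 that fell were the same whichever culture was left out, and B2M, TAP2, PSMB8, PSMB9, PSMB10 and CD74 kept their direction and their call under all 15 alternatives. Relative to the deposited scaling, the median log2 fold change of all tested genes shifted by 0.12 after rescaling to TPM, by -0.15 with quantile normalization and by -0.10 with a mean FPKM of at least 1. Over all genes, 5918 rose and 3387 fell with TPM, and 4284 rose and 4679 fell with quantile normalization. CIITA lost its call with quantile normalization (0.44) and could not be tested with a mean FPKM of at least 1, where 4 members rose. NLRC5, which was not called, changed sign with quantile normalization (-0.48), without butyrate replicate 1 (-0.22) and without control replicate 3 (-0.036), and TAPBP did so without butyrate replicate 2 (-0.0032). Over the 6 single cultures left out, NLRC5 ran from -0.22 to 0.14 and TAPBP from -0.0032 to 0.052. The log2 ratio of PSME1 to PSME2 ran from -0.086 to 0.0021 when single cultures were left out, the highest value without control replicate 2. With a DEG threshold of 1 on the log2 scale, 1 member was a DEG (PSMB9), and DEGs numbered 715 higher and 683 lower in place of 389 and 238. DEGs higher after butyrate numbered 213 with no filter and 213 with no trend, and DEGs lower numbered 141 with no trend. Leaving out single cultures gave 100 to 232 DEGs higher and 122 to 159 lower, fewer whichever culture was removed. Class I loading genes that rose numbered 2 with a mean FPKM of at least 1, 3 with TPM, 0 with no trend and 0 to 2 when single cultures were left out. Enhanceosome genes that rose numbered 0 with quantile normalization, 2 with no trend and 0 to 1 when single cultures were left out. The cause was not tested.

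No pairing by replicate number was seen: deviations from the group mean correlated at 0.023, -0.0043 and 0.0018 between cultures of the same number. Such a check cannot show that the cultures were handled without pairs. With the replicate block, DEGs higher after butyrate numbered 226 and class I loading genes that rose 2, while no member changed its call. The block allowed a smallest sign-flip p of 0.25 for the ratios. CIITA and CD74 rest on few fragments, which limits what these libraries can show for class II.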

Other observations

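TAP2, PSMB8, TAP1, PSMB9 and TAPBP lie within chr23:6975320-7425523 (UMD3.1), from DSB to TAPBP, a segment that also holds class II genes. Other class II genes lie outside it, such as BOLA-DRB3 (chr23:25472161-25476885). The segment and the genes named in it were chosen after their values were seen. Of 32 genes listed there, 9 were at 0 in all cultures and 22 were tested. Among these, with the 5 members included, 6 rose, 9 fell and 7 were not called, with a median log2 fold change of -0.031. Over all tested genes, 32.5% rose and 25.9% fell, with a median of 0.10. Neighbours of the members moved in both directions, as did genes over the whole set tested. BRD2, which encodes a reader of acetylated histones, fell from 70.0 ± 3.56 to 31.4 ± 0.808 FPKM (SD, n = 3; log2 fold change -1.15, SE 0.059, limma BH adjusted p = 8.58e-07), and it shares 11832 bp with BOLA-DOA in the annotation. RGL2, a gene beside TAPBP, fell from 28.9 ± 2.25 to 10.1 ± 0.975 FPKM (SD, n = 3; log2 fold change -1.51, limma BH adjusted p = 3.24e-06). HSD17B8, which encodes a dehydrogenase, rose from 26.6 ± 2.36 to 52.1 ± 1.15 FPKM (SD, n = 3; log2 fold change 0.97, limma BH adjusted p = 7.50e-06). BOLA-DOB, a class II chain next to TAP2, rose from 1.41 ± 0.373 to 5.00 ± 0.524 FPKM (SD, n = 3; log2 fold change 1.78, limma BH adjusted p = 0.000108).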
